A study of Homo sapiens with 6 samples.

Results

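The BCL2 family of apoptosis regulators was examined in human immortalized ventricular cardiomyocytes after knockdown of CIRBP, a cold-inducible RNA-binding protein. The 10 members were taken by name from the 58884 genes of the RNA-seq table: the pro-survival genes BCL2, BCL2L1 and MCL1, the effectors BAX and BAK1, and the BH3-only genes BAD, BID, BCL2L11, BBC3 and PMAIP1. Cells were treated with negative control siRNA (NC, 3 libraries) or siRNA against CIRBP (SiCIRBP, 3 libraries), and the labels name no other treatment. The labels name the line T0519, whereas the paper names AC16 for this experiment, and nothing in the labels says whether the replicates were separate cultures. P-values therefore measure the spread between these libraries, which may be technical. The study left NC_1 and SiCIRBP_2 out of its own test because they stood apart. The other 4 libraries (NC_2, NC_3, SiCIRBP_1 and SiCIRBP_3) therefore give the fits reported first, with all 6 beside them. Leaving out libraries for standing apart narrows the spread within groups, so the p-values over 4 libraries can be too small.

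Intrinsic apoptosis is decided at the outer membrane of mitochondria. There BAX and BAK1 form pores that release cytochrome c, the pro-survival proteins hold them in check, and BH3-only proteins engage members of both other classes. The BAX to BCL2 ratio is a common readout of this balance in heart muscle cells, whose loss by apoptosis is part of the cardiotoxicity of chemotherapy.

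What ties the family together is the BH3 domain, the short helix through which its proteins bind one another. The stretches of 10 codons that encode the core of this helix are shown because they are the sequence all 3 roles have in common. They were read from GENCODE 29 transcripts, 5′ to 3′ on the coding strand, and the capitals mark the codons for the conserved leucine, the small residue (glycine, alanine or serine) and the aspartate that follows it.
BCL2: CTCcgccaggccGGCGACgacttctcccgc
BCL2L1: CTGagggaggcaGGCGACgagtttgaactg
MCL1: TTAcgacgggttGGGGATggcgtgcagcgc
BAX: CTCaagcgcatcGGGGACgaactggacagt
BAK1: CTCgccatcatcGGGGACgacatcaaccga
BAD: CTCcggaggatgAGTGACgagtttgtggac
BID: CTCgcccaggtcGGGGACagcatggaccgt
BCL2L11: TTGcggcgtattGGAGACgagtttaacgct
BBC3: CTGcggcggatgGCGGACgacctcaacgca
PMAIP1: CTCaggagatttGGAGACaaactgaacttc

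Outside the capitals the stretches differ between members, and the small residue is glycine in all but BAD (serine) and BBC3 (alanine). On GRCh38, the stretch of BAX is at chr19:48955787-48955816 on the plus strand, in exon 3 of 6, and that of BAK1 is at chr6:33575387-33575416 on the minus strand, in exon 4 of 6. That of BCL2 is at chr18:63318349-63318378 (minus strand, exon 2 of 3). The BH3 stretch of BCL2L11 is at chr2:111150103-111150132 (plus strand, exon 4 of 5) and that of PMAIP1 at chr18:59902673-59902702 (plus strand, exon 2 of 2). In BID the same pattern occurred at 2 places, and the one at residue 136 of the longer protein is printed, since it is the known BH3 domain.

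The estimated counts of a library summed to between 25726259 and 29919566. CIRBP was between 85.8 and 91.0 CPM (estimated counts scaled to a common library size with TMM factors) in NC and at 54.8, 24.3 and 46.3 CPM in SiCIRBP_1, SiCIRBP_2 and SiCIRBP_3. Over 15217 genes, SiCIRBP_2 correlated with the other libraries at Pearson's r of 0.960 to 0.975 on the log2(CPM + 1) scale. NC_1 correlated at 0.994 with NC_2, at 0.993 with NC_3 and at 0.991 with SiCIRBP_1. For NC_2 and NC_3 the value with SiCIRBP_1 was 0.985 and 0.984. Interferon-stimulated genes were higher in SiCIRBP_2, where the median gene of a list of 16 lay 3.63 above the NC mean (log2), compared with -0.80 in SiCIRBP_1 and 0.94 in SiCIRBP_3. Their part in the results on the BCL2 family was not tested. In bulk RNA, a change in the share of cells in a given state and a change of RNA per cell cannot be told apart. Of 15 cardiomyocyte markers, 11 were under 1 TPM in every library and 4 (MYH6, MYL2, RYR2 and PLN) were listed at 0 throughout. Of these markers, 4 were tested over the 4 libraries, where 0 rose and 2 fell, against 9.62% and 9.76% of all genes. The 2 were the cardiac factors GATA4 (log2 fold change -0.41, edgeR adjusted p = 0.0211) and NKX2-5 (-1.24, adjusted p = 0.0160). Over 6 libraries their edgeR adjusted p was 0.198 and 0.639. GATA4 was at 87.3, 111 and 108 CPM in NC and 79.7, 47.4 and 84.6 CPM in SiCIRBP. Of 8 mesenchymal markers, 7 were tested over the 4 libraries, and 1 rose and 0 fell, against the same shares. It was the collagen gene COL1A1 (log2 fold change 0.87, edgeR adjusted p = 0.0332). Over 6 libraries its adjusted p was 0.491 in edgeR and 0.437 in DESeq2. COL1A1 was at 2932, 2394 and 2248 CPM in NC and 3226, 1629 and 5234 CPM in SiCIRBP. COL1A2, named after its values were seen, was at 93.2, 87.6 and 86.1 CPM in NC and 99.9, 202 and 214 CPM in SiCIRBP. Its adjusted p was 0.0971 over 4 libraries and 0.114 over 6 in edgeR, and 0.00967 over 6 in DESeq2. The summed TPM of the list was 3785 to 4039 in NC and 3716 to 5262 in SiCIRBP, and its part in the results on BAX and BAK1 was not tested. The summed TPM of the 4 smooth muscle markers was 147 to 368 in the other 5 libraries and 1254 in SiCIRBP_2, of which TAGLN alone made up 1240, while the defining marker MYH11 was at most 0.51 TPM in any library.

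Per transcript length, the members differed widely in level. BAX had the highest level of the family in NC, at 245 ± 7.28 TPM (SD, n = 3), followed by BAD at 121 ± 4.31 and BID at 96.2 ± 5.27. BCL2L1 (70.0 ± 7.66 TPM) and MCL1 (63.9 ± 3.38 TPM) overlapped, and both were above BAK1 (28.2 ± 0.94 TPM). PMAIP1 (10.8 ± 2.45 TPM) and BCL2L11 (9.99 ± 1.99 TPM) overlapped, and BBC3 was at 5.48 ± 1.60 TPM. BCL2 had the lowest level, 1.46 ± 0.05 TPM, far below the other pro-survival members. BCL2L2, a pro-survival gene outside the 10, named after its values were seen, was at 11.9, 11.7 and 13.0 TPM in NC. Together the 10 members summed to 633, 657 and 668 TPM in NC and to 734, 813 and 686 TPM in SiCIRBP, with no overlap between the groups. Of this sum, BAX alone made up 36.1% to 39.7% in NC and 38.4% to 44.4% in SiCIRBP.

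With CIRBP knocked down, 3 of the 10 members passed the test over the 4 libraries, in which 2 rose (BAX and BAK1) and 1 fell (PMAIP1). Over all 15421 genes tested, 9.62% rose and 9.76% fell by the same rule (edgeR's quasi-likelihood test, Benjamini-Hochberg adjusted p under 0.05). The median log2 fold change was -0.05 for the members and -0.002 for all genes. The calls of BAX, BAK1 and PMAIP1 were lost without NC_2 or NC_3, when 168 and 64 genes were called in all, against 2989 with the 4 libraries. With all 6 libraries, edgeR called 0 members and 0 of 15217 genes, where the smallest adjusted p was 0.0853. At an unadjusted p under 0.05 it then gave 3 members (BAX, BAK1 and MCL1) and 23.7% of all genes, whereas DESeq2 on the same 6 libraries called BAX and BAK1, with 4.48% of the genes that received an adjusted p called as higher.

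**Figure D1:**
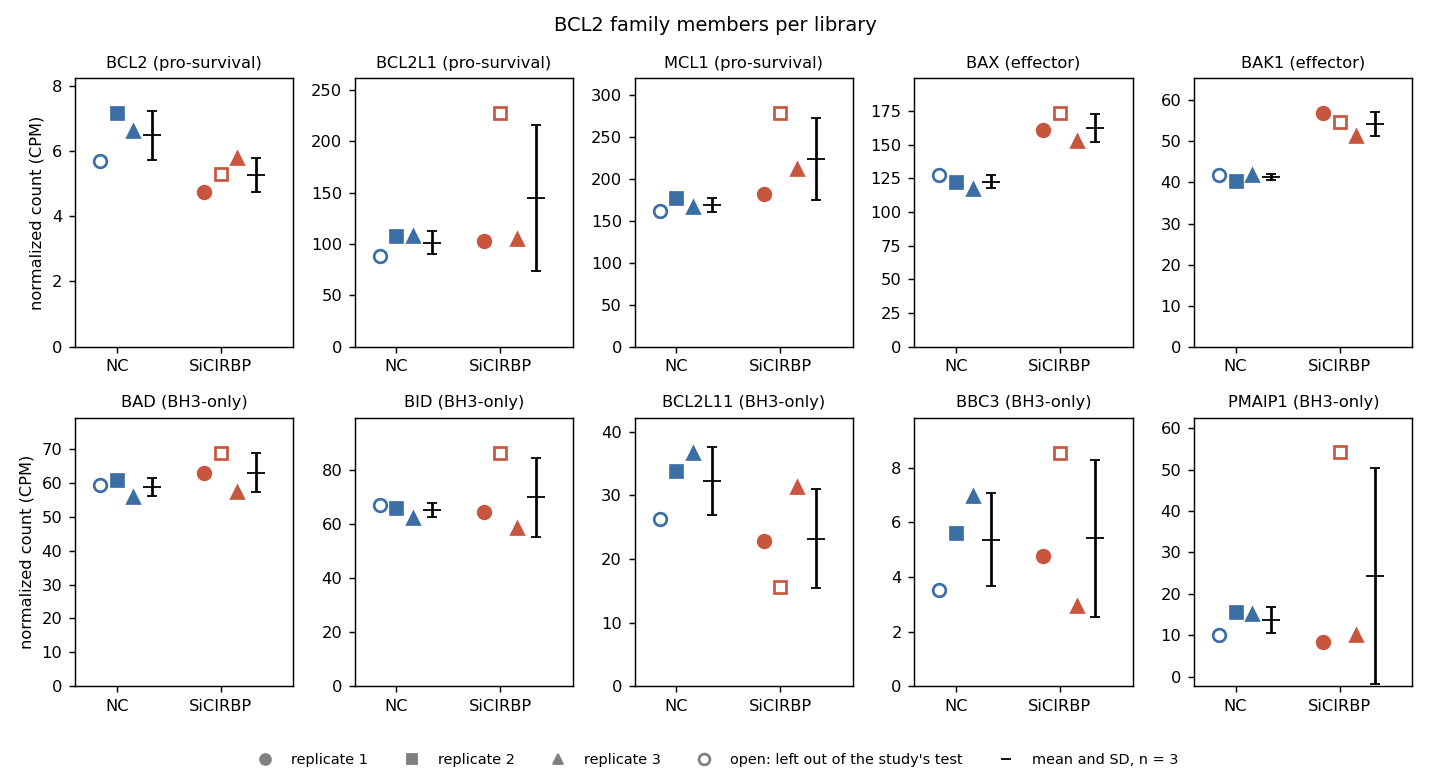
Normalized count (CPM) of each of the 10 members in the 6 libraries, with blue symbols for NC, red for SiCIRBP, open symbols for the libraries left out of the study's test, and black bars for the mean and SD of 3 libraries. BAX and BAK1 do not overlap between the groups, and SiCIRBP_2 lies farthest from the other libraries in PMAIP1.

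Both effectors were higher after knockdown in every library. BAX, which moves from the cytosol to mitochondria when activated, was at 127, 123 and 117 CPM in NC_1, NC_2 and NC_3. It was at 161, 173 and 153 CPM in SiCIRBP_1, SiCIRBP_2 and SiCIRBP_3. The lowest SiCIRBP value thus exceeded the highest NC value, and SiCIRBP_2 did not stand apart. The log2 fold change of BAX was 0.39 ± 0.08 (SE; edgeR, 4 libraries, adjusted p = 0.0229), a 1.31-fold difference. Over 6 libraries it was 0.41 ± 0.11, with an adjusted p of 0.110 in edgeR and 0.0329 in DESeq2.

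BAK1, the effector that sits in the mitochondrial membrane at rest, was at 41.9, 40.4 and 41.8 CPM in NC and at 56.8, 54.8 and 51.2 CPM in SiCIRBP. The groups did not overlap, and the NC values spread by an SD of only 0.82 CPM. Its log2 fold change was 0.39 ± 0.10 (edgeR, 4 libraries, adjusted p = 0.0384), with an adjusted p of 0.117 over 6 libraries in edgeR and 0.0470 in DESeq2. The BAK1 and BAX differences were of the same size to within their errors.

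The difference was also seen per transcript length. BAX was at 252, 237 and 247 TPM in NC and 326, 312 and 293 TPM in SiCIRBP, and BAK1 at 28.2, 27.3 and 29.2 against 36.7, 31.6 and 33.2 TPM. Over the genes tested, the median log2 difference in TPM was -0.15 between the groups of 3 and -0.10 over the 4 libraries, so TPM changes are to be read against that shift. The limma test on log2(TPM + 1) over 4 libraries gave adjusted p-values of 0.0552 for BAX and 0.127 for BAK1, which did not pass. Taken by groups that do not overlap, 3 of 10 members were higher in CPM in every SiCIRBP library (MCL1, BAX and BAK1) and 0 were lower, against 16.2% and 16.6% of all genes. In TPM, BAX and BAK1 were higher and BCL2 was lower, against 8.61% and 22.6% of all genes.

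**Figure D2:**
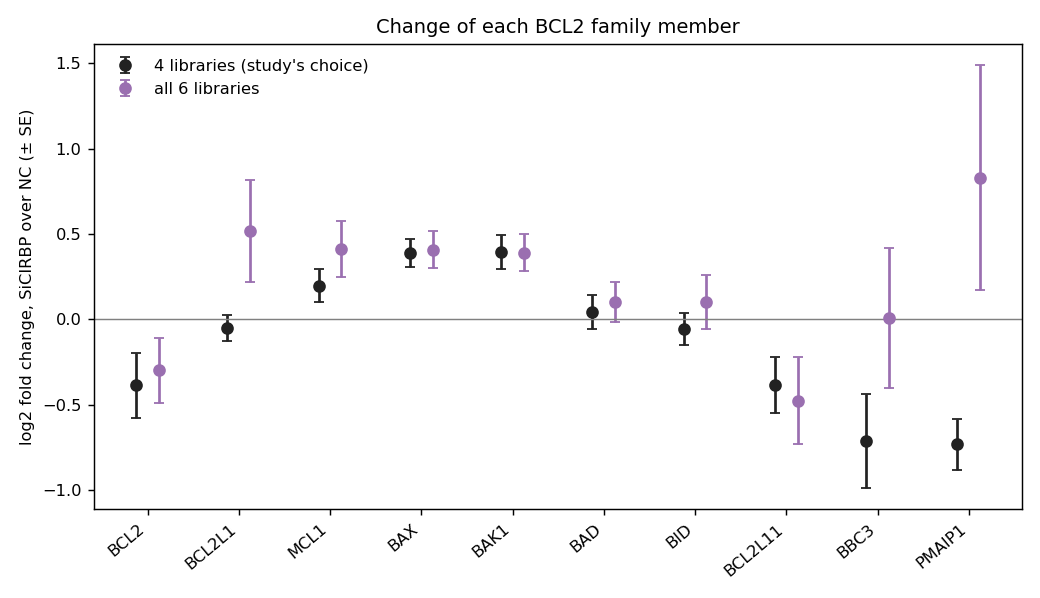
Log2 fold change (SiCIRBP over NC, ± SE) of each member from edgeR over the 4 libraries of the study's test (black) and over all 6 (purple). BAX and BAK1 are near 0.4 in both fits, whereas PMAIP1 is -0.73 in the first and 0.83 in the second.

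BCL2, the founding pro-survival member, was scarce and did not pass the test. It had between 136 and 201 estimated counts per library, for which counting error alone is 7.1% to 8.6%. Its values were 5.68, 7.15 and 6.59 CPM in NC and 4.73, 5.29 and 5.77 CPM in SiCIRBP, which overlap. In TPM they were 1.43, 1.51 and 1.43 in NC and 0.94, 0.97 and 1.09 in SiCIRBP, which do not. Its log2 fold change was -0.39 ± 0.19 (edgeR, 4 libraries, adjusted p = 0.188) and -0.30 ± 0.19 over 6 libraries (adjusted p = 0.358).

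The ratio of BAX to BCL2, in which the scaling of each library cancels, was higher in every SiCIRBP library. In TPM it was 176, 157 and 172 in NC_1, NC_2 and NC_3 and 347, 322 and 269 in SiCIRBP_1, SiCIRBP_2 and SiCIRBP_3. The means were 168 ± 10.0 and 313 ± 39.8 (SD, n = 3), a 1.85-fold difference on the log scale, and the exact two-sided permutation test gave p = 0.1, the smallest value that 3 against 3 libraries allow. In CPM, which is not scaled by length, the ratio was 22.4, 17.2 and 17.8 in NC against 34.1, 32.7 and 26.5 in SiCIRBP, a 1.63-fold difference (exact permutation p = 0.1). The ratio is higher in TPM than in CPM because TPM divides by the assigned transcript length. Relative to the median gene, that length was 0.31 for BAX and 2.78 for BCL2 in NC. It was 0.30 and 2.98 in SiCIRBP, so the fold difference also differs between the scales. Since BCL2 had few counts, its counting error enters each ratio. The ratio of BAK1 to BCL2 was also higher in every SiCIRBP library, 1.75-fold in TPM (exact permutation p = 0.1). It shares the BCL2 values with the BAX ratio. In TPM, BAX and BAK1 were higher and BCL2 was lower in every SiCIRBP library. Both TPM ratios therefore had to separate, and their p-values add nothing to those single-gene values.

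Against the abundant pro-survival genes no such separation was found. The BAX to BCL2L1 ratio in TPM was 4.10, 3.24 and 3.26 in NC and 4.95, 2.53 and 4.51 in SiCIRBP (exact permutation p = 0.8). The lowest of the 6 values was that of SiCIRBP_2, and the other 2 SiCIRBP libraries were above all NC libraries. The BAX to MCL1 ratio overlapped as well, at 4.18, 3.55 and 3.81 in NC and 4.97, 3.66 and 3.82 in SiCIRBP (exact permutation p = 0.6).

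**Figure D3:**
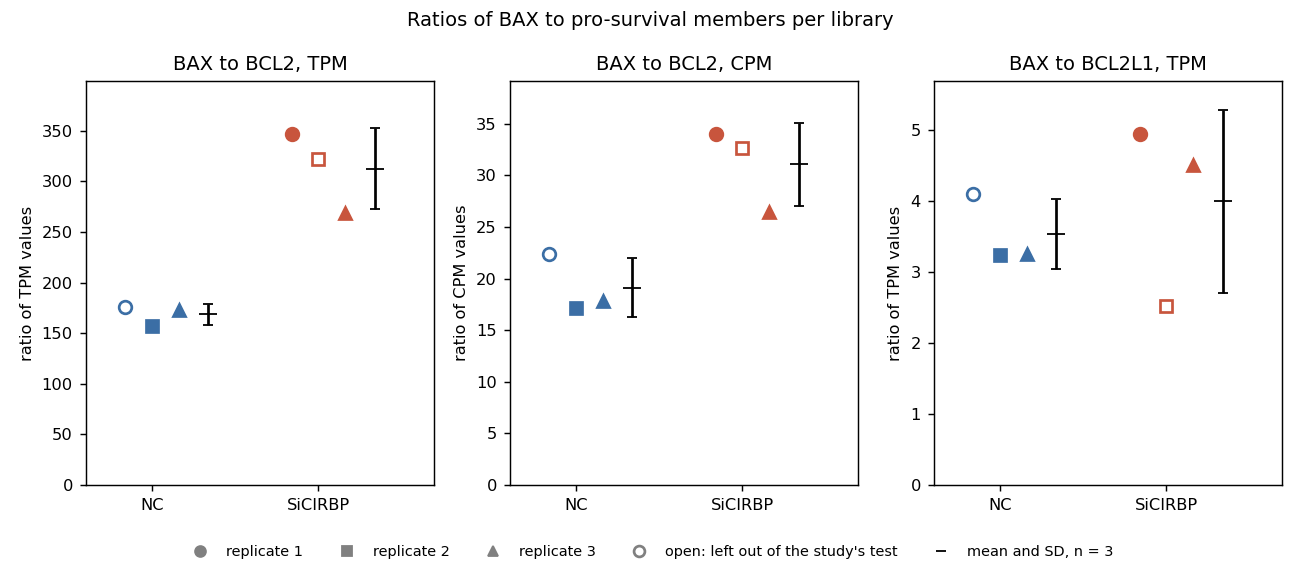
Ratio of BAX to BCL2 in TPM (left) and in CPM (middle) and of BAX to BCL2L1 in TPM (right) per library, with bars for the mean and SD of 3 libraries and open symbols for the libraries left out of the study's test. The BAX to BCL2 ratio lies between 157 and 176 in NC and between 269 and 347 in SiCIRBP in TPM, whereas for BCL2L1 the groups overlap.

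BCL2L1, whose main product BCL-XL restrains BAX, was at 88.3, 107 and 108 CPM in NC and at 103, 227 and 105 CPM in SiCIRBP. The value of SiCIRBP_2 stood alone, and without it the groups overlapped. Its log2 fold change was accordingly -0.05 ± 0.08 over 4 libraries (edgeR, adjusted p = 0.681) and 0.52 ± 0.30 over 6 (adjusted p = 0.320). The exons of BCL2L1 overlap those of the antisense gene ABALON by 1424 bases. ABALON was at 0 to 24.2 estimated counts in the other libraries and at 115 in SiCIRBP_2, and whether counting used strand is not given in the sources used here.

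MCL1, a short-lived pro-survival protein on which heart muscle depends, was at 162, 178 and 166 CPM in NC and at 182, 278 and 212 CPM in SiCIRBP. It was thus higher in every SiCIRBP library in CPM, while its TPM values overlapped (60.2, 66.8 and 64.7 against 65.7, 85.3 and 76.8). The log2 fold change was 0.20 ± 0.10 over 4 libraries (edgeR, adjusted p = 0.192) and 0.41 ± 0.16 over 6 (adjusted p = 0.184), so MCL1 did not pass in either fit.

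Of the 5 BH3-only genes, only PMAIP1 passed the test over 4 libraries, and its direction depended on SiCIRBP_2. PMAIP1 encodes NOXA, which neutralizes MCL1 and is known as a target of p53 and of stress responses. It was at 10.1, 15.7 and 15.2 CPM in NC and at 8.39, 54.3 and 10.2 CPM in SiCIRBP. SiCIRBP_1 and SiCIRBP_3 were below NC_2 and NC_3, NC_1 lay between them, and SiCIRBP_2 was above every other library. The log2 fold change was -0.73 ± 0.15 over the 4 libraries (edgeR, adjusted p = 0.0216) and 0.83 ± 0.66 over all 6 (adjusted p = 0.454). With only SiCIRBP_2 left out of the 6 it was -0.56 and did not pass, so the fall held with SiCIRBP_2 left out but was called over the 4 libraries and not over these 5.

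BBC3, which encodes the p53 target PUMA, showed a similar arrangement at a lower level. It was at 3.54, 5.63 and 6.95 CPM in NC and at 4.76, 8.56 and 2.92 CPM in SiCIRBP, where the highest of the 6 values was again in SiCIRBP_2. The log2 fold change was -0.71 ± 0.27 over 4 libraries (edgeR, adjusted p = 0.112) and 0.01 ± 0.41 over 6 (adjusted p = 0.993). With 82 to 220 estimated counts per library, its counting error was 6.7% to 11%.

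Other targets of the regulators of PMAIP1 and BBC3 were read beside them. Of 16 known p53 targets outside the family, 0 rose and 1 fell over 4 libraries, against 9.62% and 9.76% of all genes, namely DDB2, a DNA repair gene (log2 fold change -0.70, edgeR adjusted p = 0.0216). The cell cycle inhibitor CDKN1A, chosen after its values were seen, was at 111 CPM in SiCIRBP_2 and at 31.8 to 46.9 CPM in the other libraries. Of 12 targets of ATF4 and CHOP, the transcription factors of the integrated stress response, 0 rose and 7 fell over 4 libraries, against the same shares of all genes, among them DDIT3 (-1.75, adjusted p = 0.0103), CEBPB (-1.05, adjusted p = 0.00766) and TRIB3 (-0.93, adjusted p = 0.0330). Over 6 libraries the edgeR values were -0.62 (adjusted p = 0.505), -0.63 (0.173) and -0.35 (0.578), and the median of the list went from -0.50 to -0.16. DDIT3, which encodes CHOP, was at 18.5, 38.5 and 58.8 CPM in NC and 17.4, 46.5 and 11.5 CPM in SiCIRBP, so NC_1 was also low and SiCIRBP_2 lay within the range of NC. The part of these responses in the values of PMAIP1 and BBC3 was not tested.

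BAD and BID differed by less than their errors over the 4 libraries. BAD, which opposes BCL2 and BCL2L1 and is inactivated by growth factor signalling, was at 59.5, 61.1 and 55.9 CPM in NC and 63.0, 69.0 and 57.4 CPM in SiCIRBP (log2 fold change 0.04 ± 0.10, edgeR, 4 libraries, adjusted p = 0.783). Its exons share 404 bases with GPR137 on the opposite strand, which was highest in SiCIRBP_2, at 56.1 CPM. BID, which links death receptors to mitochondria once cleaved, was at 67.0, 65.9 and 62.1 CPM in NC and 64.5, 86.3 and 58.6 CPM in SiCIRBP. Its log2 fold change was -0.06 ± 0.10 (edgeR, 4 libraries, adjusted p = 0.710), and its highest value was in SiCIRBP_2. Cleavage of BID and phosphorylation of BAD act on the proteins and are not seen in these counts.

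BCL2L11, which encodes BIM in short and long forms, gave different pictures in counts and in TPM. It was at 26.3, 33.9 and 36.7 CPM in NC and at 22.8, 15.6 and 31.3 CPM in SiCIRBP, with a log2 fold change of -0.39 ± 0.16 over 4 libraries (edgeR, adjusted p = 0.139) and -0.48 ± 0.25 over 6 (adjusted p = 0.285). In TPM it was at 8.06, 9.88 and 12.0 in NC and at 10.6, 8.18 and 10.6 in SiCIRBP, so the groups overlapped and their means of 9.99 ± 1.99 and 9.80 ± 1.40 lay within 1 SD of each other. The scales part because TPM divides each count by the transcript length that the counting tool assigned to the gene in that library.

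This implied length (count divided by TPM, relative to the median gene of the library) was 2.01, 2.13 and 1.96 for BCL2L11 in NC and 1.27, 1.01 and 1.73 in SiCIRBP. It was lower in every SiCIRBP library, with a ratio of 0.656 between the groups (exact permutation p = 0.1, the smallest possible). The gene has 25 annotated transcripts of 243 to 5231 bases, 17 of them protein-coding, so reads were assigned to shorter transcripts on average in SiCIRBP. Exons of BCL2L11 overlap the long noncoding gene MIR4435-2HG on the opposite strand by 727 bases, and that gene was at 55.4 to 68.3 CPM with overlapping groups. The other shifts were small: BAX was lower (ratio 0.947), with SiCIRBP_3 and NC_3 both at 0.305, and BCL2L1 was higher (ratio 1.05). In 3 of 10 members the groups did not overlap in this measure, 1 higher and 2 lower, against 6.65% and 10.3% of 13798 genes.

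**Figure D4:**
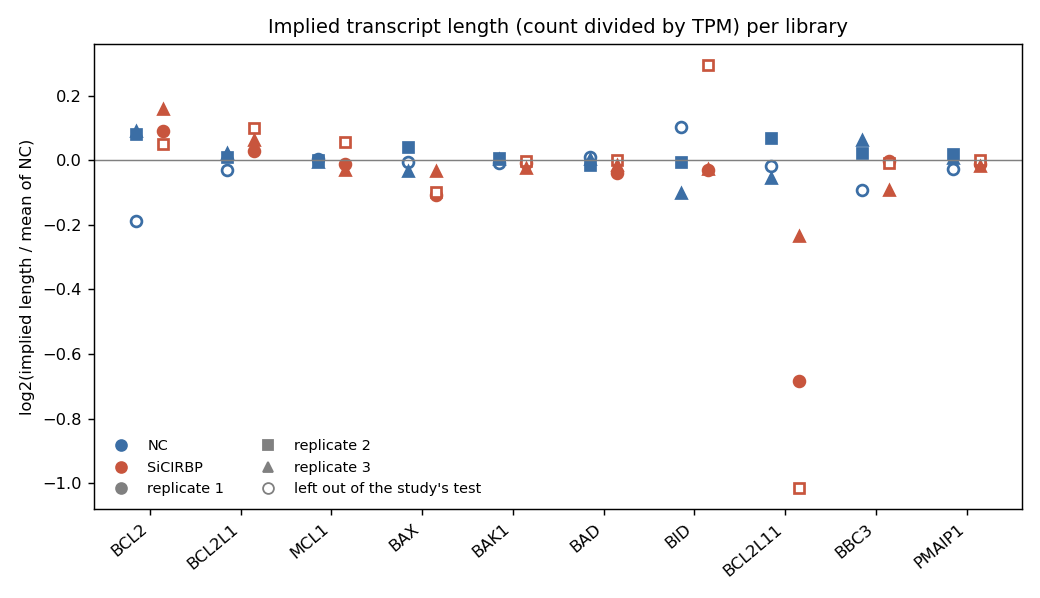
Implied transcript length of each member per library, as log2 of the value over the NC mean, with NC in blue, SiCIRBP in red and open symbols for the libraries left out of the study's test. BCL2L11 lies below 0 in each SiCIRBP library, at a mean difference of -0.64, whereas the other members stay within 0.3 of the NC mean.

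Summed by role, the effectors were at 280, 264 and 276 TPM in NC and at 363, 344 and 327 TPM in SiCIRBP, without overlap. BAX and BAK1 were each already without overlap in TPM, and BAX made up most of this sum. The pro-survival genes summed to 123, 142 and 142 TPM in NC and to 132, 210 and 143 TPM in SiCIRBP, which overlap. The BH3-only genes summed to 230, 251 and 251 TPM in NC and to 239, 260 and 216 TPM in SiCIRBP, which overlap too. As a share of the family's TPM, the BH3-only genes made up 37.4% ± 0.92 in NC and 32.0% ± 0.50 in SiCIRBP (SD, n = 3) and were lower in every SiCIRBP library. A share falls when another part grows, and the part of each gene in this difference was not tested. The share of BAX was 37.6% in NC and 41.9% in SiCIRBP on average, with overlap. Among the BH3-only genes, the shares of BAD and BID were lower in every SiCIRBP library, and those of BCL2L11, BBC3 and PMAIP1 overlapped.

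The ratio of effectors to pro-survival genes in TPM was 2.28, 1.87 and 1.95 in NC and 2.74, 1.64 and 2.29 in SiCIRBP (exact permutation p = 0.6). The lowest value was that of SiCIRBP_2, in which BCL2L1 and MCL1 were highest, and over the 4 libraries the ratio was 1.31-fold higher in SiCIRBP. The ratio of BH3-only to pro-survival genes was 1.87, 1.77 and 1.77 in NC and 1.80, 1.24 and 1.51 in SiCIRBP in TPM (exact permutation p = 0.3). In CPM it was lower in every SiCIRBP library (0.65, 0.62 and 0.63 against 0.56, 0.46 and 0.50, exact permutation p = 0.1).

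The genes of the steps that follow pore formation were read in the same fit. Of 10 genes for mitochondrial outer membrane channels and the proteins that act after release, 3 rose and 1 fell over the 4 libraries, against the 9.62% and 9.76% of all genes given above. CYCS, which encodes the cytochrome c that BAX and BAK1 release, was at 127, 102 and 93.7 CPM in NC and at 154, 166 and 164 CPM in SiCIRBP. The groups did not overlap, and the log2 fold change was 0.71 ± 0.09 (edgeR, 4 libraries, adjusted p = 0.00688), with 0.0998 over 6 libraries in edgeR and 0.00965 in DESeq2.

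XIAP, an inhibitor of apoptosis, fell by 0.79 on the log2 scale (edgeR, 4 libraries, adjusted p = 0.0232). It was at 33.6, 41.9 and 43.9 CPM in NC and 20.7, 32.2 and 28.9 CPM in SiCIRBP, without overlap. Over 6 libraries its log2 fold change was -0.54, and it did not pass in edgeR (adjusted p = 0.155) or DESeq2 (adjusted p = 0.0859).

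VDAC3, a channel of the outer membrane (log2 fold change 0.58, edgeR adjusted p = 0.0150), and ENDOG, a nuclease released from mitochondria (0.42, adjusted p = 0.0397), rose over 4 libraries but overlapped over 6. In VDAC3 NC_1 (133 CPM) lay above SiCIRBP_2 (124 CPM), and in ENDOG SiCIRBP_2 was at 22.7 CPM, within the range of NC. The initiator genes APAF1 (0.33, adjusted p = 0.0817) and CASP9 (-0.20, adjusted p = 0.367), named after their values were seen, did not pass. Over 6 libraries edgeR called 0 of these 10 genes, as it called 0 genes in all.

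Of 13 further genes of the BCL2 family, 7 were expressed highly enough to be tested, and 1 rose and 1 fell, against 9.62% and 9.76% of all genes. BCL2L12, a divergent member of the family, was at 58.2, 49.3 and 45.8 CPM in NC and 66.2, 96.0 and 72.6 CPM in SiCIRBP (log2 fold change 0.55 ± 0.10, edgeR, 4 libraries, adjusted p = 0.0160). BNIP3, a hypoxia-induced gene of mitophagy, was at 172, 186 and 183 CPM in NC and 148, 89.7 and 138 CPM in SiCIRBP (-0.36 ± 0.08, adjusted p = 0.0265). Neither overlapped between the groups. Over 6 libraries BCL2L12 had an adjusted p of 0.114 in edgeR and 0.0280 in DESeq2, and BNIP3 0.158 and 0.0836. HRK, BCL2A1 and BCL2L10, named after their values were seen, had at most 0.07 CPM in any library.

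**Figure D5:**
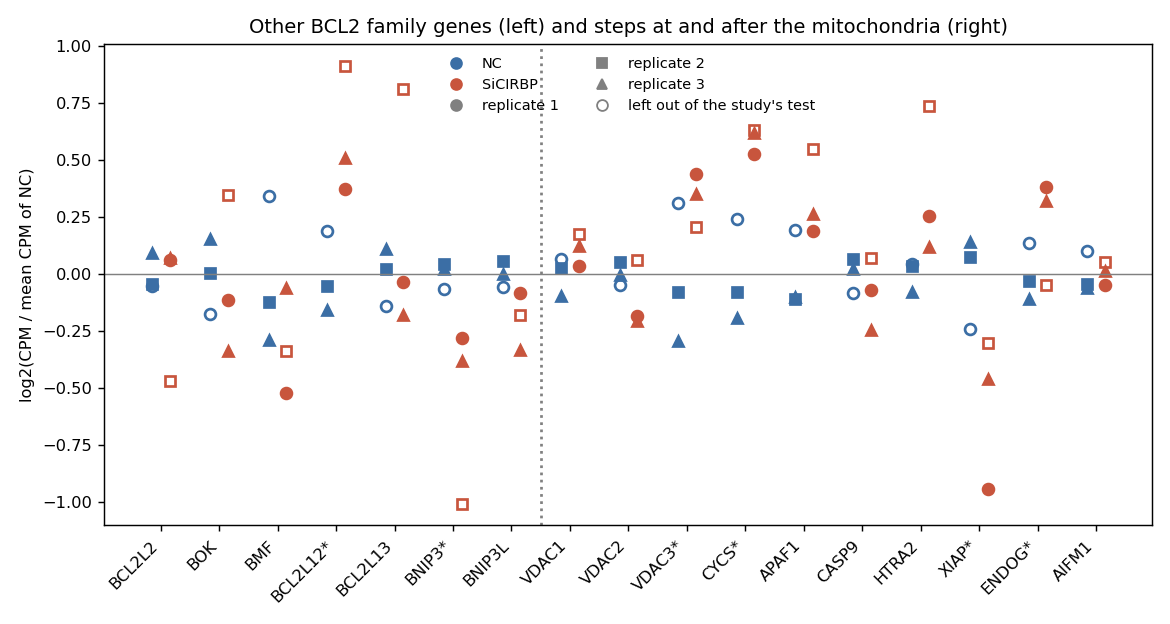
Log2 of CPM over the mean NC CPM for the 7 other BCL2 family genes tested (left of the dotted line) and 10 genes acting at or after the mitochondrial membrane (right), with NC in blue, SiCIRBP in red and open symbols for the libraries left out of the study's test. Asterisks mark an edgeR adjusted p under 0.05 over 4 libraries. CYCS, BCL2L12 and HTRA2 lie higher and XIAP, BNIP3 and BNIP3L lower in each SiCIRBP library than in any NC library, as do 16.2% (higher) and 16.6% (lower) of all genes.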

How the data were processed

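RNA-seq libraries of NC and SiCIRBP cells (3 each) were grouped by their labels. The authors deposited an estimated count (RSEM, per the submitters' processing notes, which also name fastp, HISAT and hg38) and a TPM value for each of 58884 genes. Tool versions, the annotation release and strandedness are not given in the sources used here. The deposited table's columns of fold changes and p-values from the authors' own comparisons were not used. Totals were 25726259 to 29919566 per library. Intervals of counting error cover counting only.

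The deposited estimated counts, after rounding, went into edgeR 4.0.16 (R 4.3.3; TMM, filterByExpr, quasi-likelihood test) over the study's 4 libraries, with p-values adjusted over all genes tested. CPM was scaled by TMM over all 6 libraries. DESeq2 1.42.0 and limma 3.58.1 on log2(TPM + 1), or with a pseudocount of 0.1, served as alternatives, and ratios and implied lengths were compared by exact permutation over samples. The implied length used genes with at least 10 counts in every library. The standard error of a log2 fold change was its absolute value over the root of F.

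The choice of libraries (4, all 6, 1 left out), a replicate block, RLE size factors and the filter on low counts (none, or at least 10 in every library) were varied. Gene models, exon overlaps and the printed sequences came from GENCODE 29 on GRCh38, in which 58611 identifiers were found. The procedure was tested on simulated data, where edgeR recovered 90% of 200 genes changed by a log2 of 1 among 15421 genes for the comparison of 4 libraries. For 6 libraries it recovered 98%, whereas the fit of the real 6 libraries called 0 of 15217 genes. The simulation had an assumed spread, no outlying library and larger changes than those of BAX and BAK1. It therefore does not show how often changes of their size would be found here.

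The members and lists were chosen with earlier results of these data known. All members are named, whereas of the lists only a part of the genes called is named. Of the 7 targets of ATF4 and CHOP called, only DDIT3, CEBPB and TRIB3 are given, although SLC3A2 had a smaller adjusted p than TRIB3. The called markers VWF (endothelial) and CD68 (immune) are not described, and no gene of the interferon list is named. DIABLO stands for 2 identifiers and was left out, so 10 of 11 genes of its list were used. Some genes are not reported here. Proteomics of the study were not analysed here.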

Additional observations from a re-analysis of the deposited data

How the results depend on the processing

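The count of members called (3) stayed at 3 with RLE size factors, a minimum of 10 counts and DESeq2 over the 4 libraries. In all, these fits called 2981 of 15421, 3071 of 14112 and 2959 of 26574 genes, against 2989 of 15421 in the main fit. The DESeq2 total includes genes without an adjusted p. The count was 0 with all 6 libraries (0 of 15217 genes in all). With limma on log2(TPM + 1) it was 0 over 4 libraries (1208 of 15421 genes) and 0 over 6 (0 of 15217). It was 1 with a pseudocount of 0.1 (1233 of 15421 genes) and 5 with no filter (4615 of 26574 genes). Leaving out 1 of the 4 libraries leaves 1 library in a group. The log2 fold change was then 0.34 to 0.42 for BAX, 0.31 to 0.46 for BAK1 and -0.88 to -0.60 for PMAIP1. Leaving out 1 of all 6 gave 0 to 1 members called, the 1 being BAX without SiCIRBP_2, when 1118 of 15530 genes were called in all. The 6 calls among other genes of the pathway became 0 with all 6 libraries and 2 with DESeq2 over 6, where 1351 of 27993 genes were called in all. The causes were not tested.

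BAX and BAK1 kept their direction in all 20 alternatives each, at log2 fold changes of 0.34 to 0.46 and 0.25 to 0.46, and passed in 8 and 7 of them. The direction turned over all 6 libraries for PMAIP1 (0.83, DESeq2 0.84, limma on TPM 0.19), BCL2L1 (0.52, DESeq2 0.52, limma on TPM 0.21), BID (0.103, DESeq2 0.105) and BBC3 (0.0072, DESeq2 0.0113). BAD turned in limma on TPM (-0.0402 over 4 libraries, -0.0405 with a pseudocount of 0.1, and -0.0264 over 6). Of all 6 libraries, leaving out NC_1, NC_2 or NC_3 gave 0.652, 0.936 and 0.913 for PMAIP1, 0.427, 0.559 and 0.566 for BCL2L1, and 0.124, 0.111 and 0.0688 for BID. Leaving out SiCIRBP_1 or SiCIRBP_3 gave 1.25 and 1.21 for PMAIP1, 0.720 and 0.715 for BCL2L1, and 0.164 and 0.223 for BID, whereas without SiCIRBP_2 they were -0.56, 0.0391 and -0.08. BBC3 was 0.0398 and 0.236 without NC_2 or NC_3 and 0.0989 and 0.315 without SiCIRBP_1 or SiCIRBP_3. Of the 4 libraries, BAD was -0.0241 without NC_3 and -0.0322 without SiCIRBP_1, and BID was 0.0083 without SiCIRBP_3. With 1 library left out of the 4 or the 6, the values ran from -0.88 to 1.25 for PMAIP1, -0.07 to 0.72 for BCL2L1, -0.13 to 0.22 for BID, -1.12 to 0.32 for BBC3 and -0.03 to 0.17 for BAD.

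The log2 BAX to BCL2 ratio (0.89) was 0.64 with 1 added to both TPM values, and 0.81 to 0.99 with 1 library left out. The log2 ratio of effectors to pro-survival genes (0.10) ran from -0.063 (without SiCIRBP_1) to 0.31 with 1 library left out and was 0.39 over the 4 libraries, and that of BH3-only to pro-survival genes ran from -0.40 to -0.13 and was -0.10. Members without overlap in implied length (3) were 9 over the 4 libraries, where 2 against 2 separate more easily, 2 when scaled to genes with at least 100 counts, and 3 to 7 with 1 library left out.

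No sign of pairing by replicate number was seen: deviations of same-numbered libraries correlated at -0.12, 0.01 and -0.03 over 15217 genes. The deviations were taken from means of only 3 libraries per group, so this check cannot exclude pairing. The replicate block over 6 libraries called 0 members and 0 other pathway genes, with log2 fold changes of 0.31 for PMAIP1, 0.42 for BCL2L1 and 0.0834 for BID. For the log2 BAX to BCL2 ratio, the mean difference within replicate numbers is 0.89 by arithmetic, so the block could not move it. The exact sign-flip permutation test gave p = 0.25, the smallest that 3 pairs allow. Depth limits BCL2 and BBC3 most, with counting error of 6.7% to 11% per library.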

Other observations

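BAX and BAK1 had much the same fold change although BAX was several times more abundant, and neither was set apart in SiCIRBP_2, the library with the lowest CIRBP and the highest interferon-stimulated genes. In CPM, several members, BAX included, had their highest value there, and the share of all genes for which this held was not counted. Relative to the mean of SiCIRBP_1 and SiCIRBP_3, the value was 5.85 times as high for PMAIP1, 2.23 for BBC3, 2.18 for BCL2L1 and 1.10 for BAX. The direction of PMAIP1 in SiCIRBP_2 was thus opposite to that in SiCIRBP_1 and SiCIRBP_3, a difference that 1 library cannot test.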
